A study of Mus musculus with 9 samples.

Results

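The type I interferon response genes described here are 32 genes that cells switch on after interferon-alpha or interferon-beta, listed by name, with earlier results of these data known. All 32 were among the 23499 genes of the blood table. Blood was taken from 9 female mice of the 129SvE strain and read out by Seq-Well, which captures single cells with barcoded beads in small wells and reads the 3′ end of each transcript. The 4 Healthy mice carried disease stage 0, and the 5 Sick mice carried the label rheumatoid arthritis, with stage 1.5 in mice 1 and 4, 2 in mouse 3, 1.5 to 2 in mouse 5 and 2 to 2.5 in mouse 6. The labels name neither the age of the mice nor what brought about the arthritis. Each column of the table named a mouse and a cell class, and the members were followed by mouse, by class, and then by class in a second table from arthritic joints.

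Type I interferons bind a receptor made of Ifnar1 and Ifnar2, which activates the kinases Jak1 and Tyk2. The signal reaches the nucleus through a complex that holds Irf9 and binds a DNA motif called the interferon-stimulated response element. The genes so induced block viruses at many steps: Ifit proteins bind foreign RNA, Oas enzymes activate an RNA-cutting nuclease, Isg15 is a ubiquitin-like modifier, and Rsad2 (viperin) makes a chain-terminating nucleotide. Such genes are often high in blood cells of people with systemic lupus and of some with rheumatoid arthritis.

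The motif named after the interferon response is shown first, since it is a feature the choice by name did not use. RefSeq promoter windows, running from 250 bases before to 50 bases after a start site on GRCm38.p6, were found for 23 of the 32 members. A script searched both strands for GAAANNGAAA, the core of the response element, counting overlapping matches. The core lay in the windows of 15 of the 23 members (65.2%, Wilson 95% interval 44.9% to 81.2%, which covers sampling of promoters only) and of 1079 of the 27025 genes in the table (3.99%). With 1 more base, as GAAANNGAAAC, it lay in 12 of the 23 (52.2%) and in 0.944% of all genes. Among 47 further type I targets outside the members, 40 had a window, and 15 of these (37.5%) held the core. In 13 of the 15 members a match lay wholly upstream of the start site. The following stretches come from members whose values are described below, written 5′ to 3′ on the strand of the gene, with 1 core match in capitals (printed as its reverse complement where the match lies on the other strand).
Isg15, chr4:156200861-156200910, minus strand: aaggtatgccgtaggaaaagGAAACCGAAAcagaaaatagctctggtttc
Ifit1, chr19:34640784-34640833, plus strand: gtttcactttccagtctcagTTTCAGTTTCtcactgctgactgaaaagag
Oas1a, chr5:120907526-120907565, minus strand: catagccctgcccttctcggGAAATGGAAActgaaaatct
Bst2, chr8:71537567-71537616, minus strand: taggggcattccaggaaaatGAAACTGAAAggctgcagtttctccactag
Rsad2, chr12:26456543-26456592, minus strand: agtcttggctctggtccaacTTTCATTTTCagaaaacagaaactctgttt
Ifit3, chr19:34583387-34583436, plus strand: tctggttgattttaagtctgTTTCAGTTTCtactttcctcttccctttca
Ifit3b, chr19:34607783-34607832, plus strand: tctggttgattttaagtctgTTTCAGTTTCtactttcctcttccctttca
Isg15 carried 3 overlapping cores, and Ifit1, Ifit3, Ifit3b, Oas1a and Bst2 carried 2 each. The Ifit3 and Ifit3b stretches were identical in every base, at both of the 2 sites these neighbouring copies hold. Reads from such near-identical genes may be split between them, so their separate values are uncertain. Ifit2, Oasl1, Oasl2, Cmpk2, Irf7, Irf9, Ifi44 and Xaf1 had a window without the core, which says only that these letters were not in that stretch.

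The values rest on unequal amounts of material. Healthy mice gave 26 to 201 columns each (302 in all) and 330950 to 2053973 units of signal, and Sick mice gave 502 to 1027 columns (4008 in all) and 8350920 to 13557201 units. Of the 4310 columns, 1313 were identical in every gene to another column. In all, 734 equalled a column of another mouse and 719 a column of the joint table. The sharing crossed the groups, with 59 of the 302 Healthy columns equal to a Sick column. On the other side, 62 of the 4008 Sick columns equalled a Healthy one. The 59 included 12 of the 15 B cell columns of Healthy mouse 4 and 3 of the 5 granulocyte columns of Healthy mouse 2. Mice and groups are thus less independent than the tests assume. Hemoglobin and other erythroid markers (10 genes, all with signal in every mouse) made up 1.64% to 54.3% of all signal in the Healthy group and 0.702% to 48.7% in the Sick group. The 13 neutrophil markers summed to 5601 to 10830 units per 1000000 units of signal (SPM) in Healthy mice and to 21800 to 159400 in Sick mice, with no overlap. What either has to do with the results below was not tested beyond the values without hemoglobin and the fits with granule transcripts or the granulocyte share as covariate.

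The first comparison asked whether the members differ between Healthy and Sick blood when all columns of a mouse are summed. No member passed the adjusted threshold. Of 32 members, 28 were high enough to be tested, and limma called 0 of them at an adjusted p under 0.05, beside 4 of all 8459 genes tested (0.0473%, with 0.0118% higher and 0.0355% lower). At an unadjusted p under 0.05, 5 members were higher in Sick mice and 0 were lower, beside 10.8% and 2.57% of all genes (13.4% in either direction). The difference was above 0 for 21 of the 28, beside 69.3% of all genes, and its median was 0.32 on the log2 scale, beside 0.26 over all genes. Levels in these tests are SPM after scaling by TMM factors (scaled SPM), and differences are Sick minus Healthy on the log2(scaled SPM + 1) scale, which understates those of low genes. Fewer cells of a type and less RNA per cell cannot be told apart in such sums.

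Rtp4, a chaperone of membrane receptors (chr16:23520291-23614222, plus strand), had the smallest p. It stood at 39.9, 11.5, 29.5 and 17.8 scaled SPM in Healthy mice 1 to 4, and at 52.6, 40.1, 66.4, 74.0 and 66.8 in Sick mice 1, 3, 4, 5 and 6. All 5 Sick mice lay above all 4 Healthy mice, though Sick mouse 3 was above Healthy mouse 1 by little. The difference was 1.36 ± 0.35 (SE), with a limma adjusted p of 0.199. Groups that do not overlap in this way were seen for 3 of the 28 members, all higher in Sick mice, beside 3.64% of all genes tested.

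Ifit1, which binds foreign RNA caps (chr19:34640871-34650009, plus strand), and Oas1a, an oligoadenylate synthetase (chr5:120896256-120907521, minus strand), were the other two. Ifit1 stood at 9.39, 12.3, 4.21 and 8.92 scaled SPM in Healthy mice and at 18.7, 13.5, 24.2, 34.2 and 21.9 in Sick mice, a difference of 1.29 ± 0.38 (SE; limma adjusted p = 0.234). Oas1a stood at 21.1, 3.46, 4.21 and 13.4 in Healthy mice and at 37.3, 22.6, 22.8, 29.1 and 25.1 in Sick mice, a difference of 1.59 ± 0.47 (limma adjusted p = 0.240). Both rest on little signal in the Healthy mice, where Ifit1 summed to 41 units and Oas1a to 25 over all 4.

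Cmpk2, a mitochondrial nucleotide kinase whose gene lies beside Rsad2 on chromosome 12 (chr12:26469204-26479837, plus strand), stood at 16.4, 6.54, 12.6 and 20.1 scaled SPM in Healthy mice. In Sick mice it stood at 31.9, 18.4, 29.7, 48.2 and 25.1, with Sick mouse 3 inside the Healthy range (difference 1.12 ± 0.37, limma adjusted p = 0.287). Bst2 (tetherin, which holds budding viruses at the cell surface, chr8:71534255-71537456, minus strand) stood at 68.1, 41.2, 42.1 and 49.1 in Healthy mice and at 64.7, 60.8, 63.4, 75.8 and 89.9 in Sick mice (difference 0.51 ± 0.22, limma adjusted p = 0.367). Irf9, the DNA-binding part of the interferon complex (chr14:55603571-55610030, plus strand), stood at 56.4, 50.8, 33.7 and 37.9 and at 59.6, 51.4, 55.3, 95.9 and 57.8 (difference 0.50 ± 0.25, limma adjusted p = 0.394). In both Bst2 and Irf9, Healthy mouse 1 lay inside the Sick range.

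The members with the highest levels varied within both groups. Ifi27l2a, a small mitochondrial protein gene (chr12:103442167-103443680, minus strand), ranged from 237 to 509.6 scaled SPM in Healthy mice and from 324 to 625 in Sick mice. Rsad2 (chr12:26442746-26456452, minus strand) ranged most, with 70.4, 13.8, 429.7 and 272 in Healthy mice and 21.4, 19.0, 300.2, 778 and 53.9 in Sick mice. Its difference was -0.24 ± 1.21 (limma adjusted p = 0.934). Ly6e, a surface protein of lymphocytes (chr15:74955051-74959905, plus strand), stood at 275 in Healthy mouse 1 and at 159 to 169 in the other 3, against 141 to 233 in Sick mice, so that Healthy mouse 1 was the highest of all 9. Isg15, named here after its values were seen because it is the best known member, stood at 51.7, 40.01, 71.6 and 107 in Healthy mice and at 74.6, 62.1, 177, 445 and 101.5 in Sick mice (difference 1.03 ± 0.52, limma adjusted p = 0.396). Its groups overlapped, and Sick mouse 5 was the highest. The differences of the members tested ran from -0.60 to 1.59. The lowest difference among the members was -0.60 ± 0.48 for Ifit3 (limma adjusted p = 0.531). Oas3, Oasl2, Mx1 and Mx2 were too low for the test, at group means of 3.13 to 10.25 scaled SPM.

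**Figure D1:**
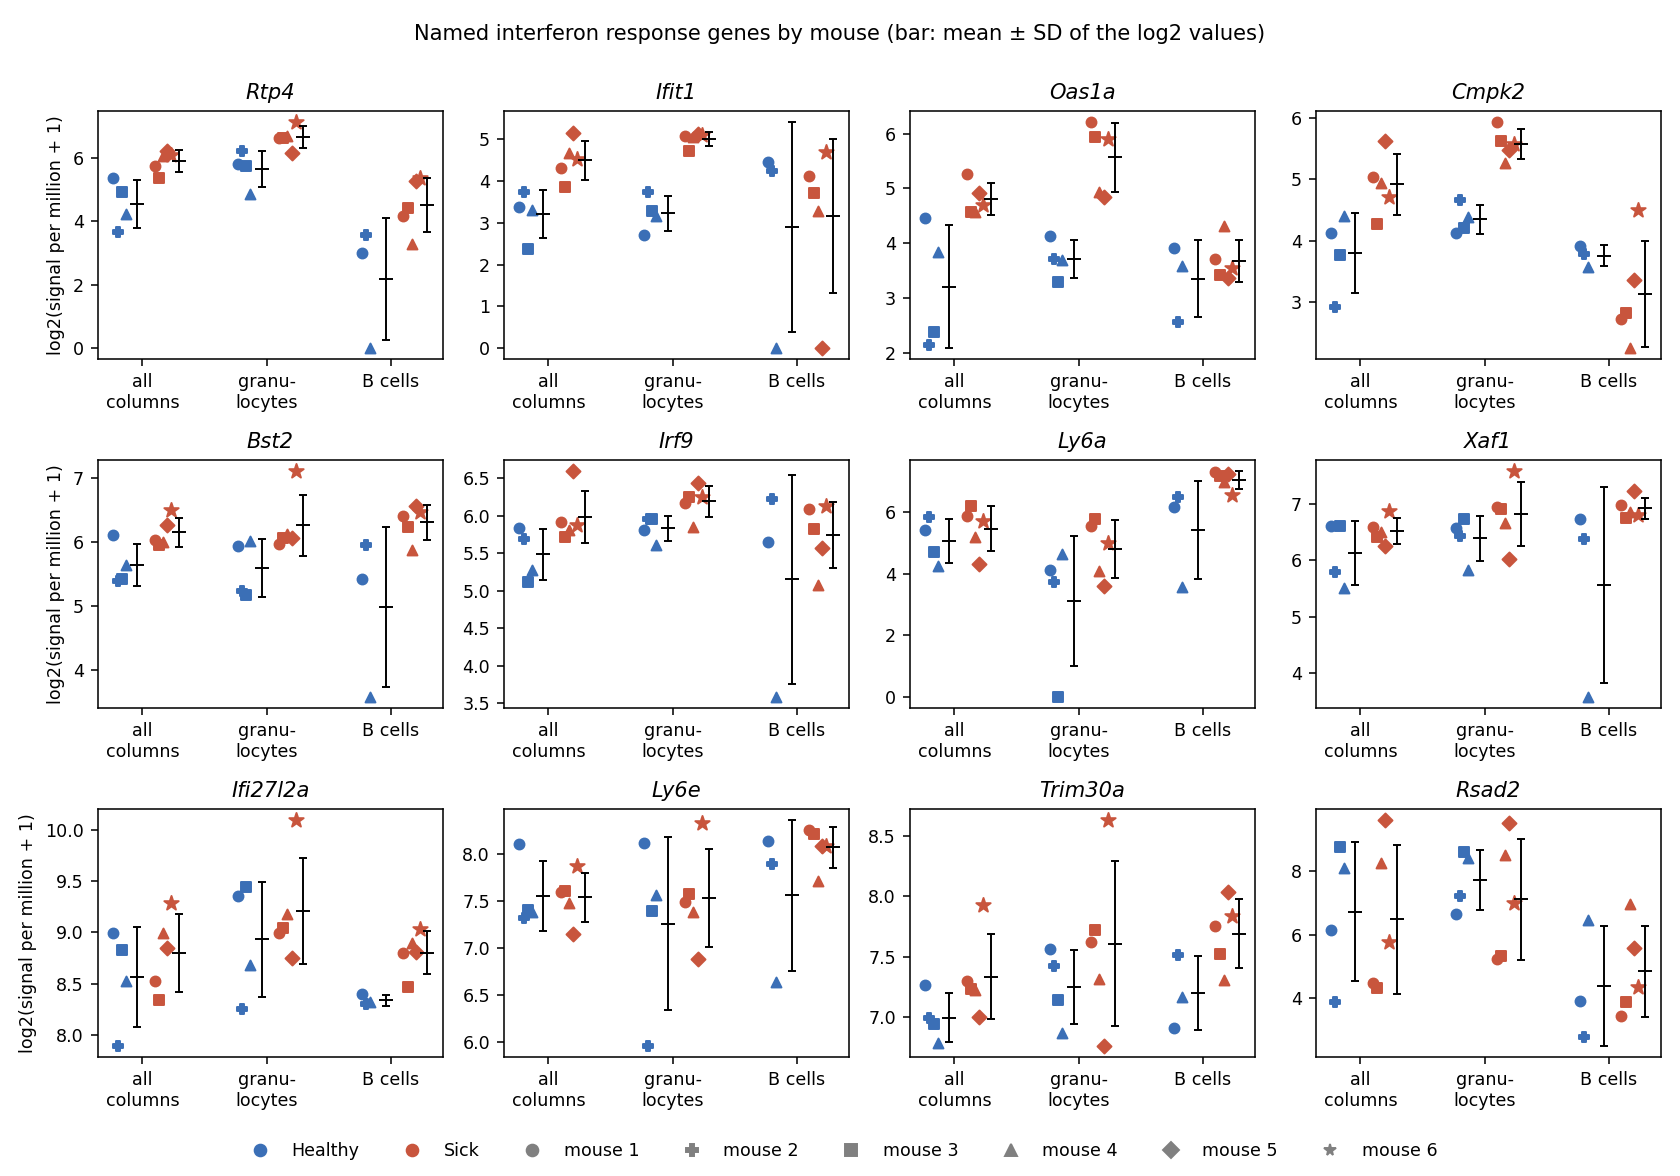
Levels of 12 members as log2(scaled SPM + 1), with 1 point per mouse, in all columns, in the granulocyte class and in the B cell class; black bars give the mean ± SD of the log2 values. In granulocytes the 5 Sick mice lie above all 4 Healthy mice for Ifit1, Oas1a and Cmpk2, while Rsad2 spreads from 37.0 to 728 scaled SPM with the groups overlapping.

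Granulocytes, which in blood are mostly neutrophils, were the only class with at least 5 columns in all 9 mice. Its 13 neutrophil markers summed to 13830 to 131800 SPM in Healthy and 64620 to 331900 in Sick mice, and its 10 erythroid markers to 216600 to 532000 and 7316 to 502100. Its Healthy mice gave only 5 to 20 columns and 59991 to 301431 units of signal each, against 249 to 489 columns and 2475988 to 8018851 units in Sick mice. Limma called 0 of 31 tested members, beside 52 of 7935 genes (0.655%, with 0.58% higher and 0.0756% lower). At an unadjusted p under 0.05, 6 members were higher and 1 was lower in Sick mice, beside 19.3% and 2.29% of all genes (21.6% in either direction). The difference was above 0 for 24 of the 31, beside 77.3% of all genes, and its median of 0.43 lay below the 0.53 of all genes.

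The antiviral effectors Oas1a, Ifit1 and Cmpk2 had the smallest p in granulocytes, with every Sick mouse above every Healthy mouse, as in 8.65% of all genes tested. Oas1a stood at 16.55, 12.2, 8.78 and 11.965 scaled SPM in Healthy mice 1 to 4 and at 72.9, 60.3, 29.7, 27.6 and 59.1 in Sick mice, a difference of 1.86 ± 0.41 (SE; limma adjusted p = 0.064). Ifit1 stood at 5.52, 12.2, 8.78 and 7.98 in Healthy mice and at 32.5, 25.3, 32.1, 33.8 and 33.1 in Sick mice, a difference of 1.79 ± 0.39 (limma adjusted p = 0.0648). Cmpk2 stood at 16.55, 24.4, 17.6 and 19.9 and at 59.9, 48.0, 37.3, 43.5 and 46.5, a difference of 1.22 ± 0.29 (limma adjusted p = 0.0786). These 3 are the members nearest the threshold in the 3 comparisons.

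Their Healthy values stand on almost no signal, and the 5 Sick mice alone were enough to carry them through the filter for testing. Ifit1 had 1, 1, 1 and 2 units in the granulocytes of Healthy mice 1 to 4, Oas1a had 3, 1, 1 and 3, and Cmpk2 had 3, 2, 2 and 5, while each Sick mouse held 113 or more units of each gene. Their calls also turned on the settings. At 21 alternative settings Ifit1 passed the adjusted threshold in 10, Oas1a in 9 and Cmpk2 in 6, with limma adjusted p from 0.0083 to 0.82 for Ifit1, 0.015 to 0.835 for Oas1a and 0.0104 to 0.899 for Cmpk2. Without Healthy mouse 2, which gave 5 granulocyte columns, 4 members passed, but 883 genes were then called in all, against 52 in the main fit. Such calls were thus not particular to the members. Without Healthy mouse 1, 3 or 4 in turn 3 members passed each time, and without any 1 Sick mouse 0 did. With the summed Ltf, Camp and Ngp level of each mouse as a covariate 0 members passed.

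Rtp4 stood at 55.2, 73.3, 52.7 and 27.9 scaled SPM in Healthy granulocytes and at 97.2, 98.2, 102, 70.02 and 139 in Sick ones, with Sick mouse 5 inside the Healthy range (difference 0.99 ± 0.30, limma adjusted p = 0.123). When every mouse was thinned to the smallest total its difference was -0.32 (limma adjusted p = 0.935), in the opposite direction. Ifi27l2a stood at 651, 305, 693 and 411 in Healthy mice and at 509, 526, 577, 429 and 1092 in Sick mice. Trim30a, a regulator of innate immune signalling (chr7:104409025-104465193, minus strand), stood at 188, 171, 140.4 and 116 in Healthy mice and at 196, 209, 158, 107 and 395 in Sick mice. For both genes Sick mouse 6 was the highest of 9. The other Sick mice lay inside the Healthy range, except that Trim30a in Sick mice 1 and 3 lay just above it and in Sick mouse 5 below it. Oas3, with signal in only 1 Healthy mouse, had the largest difference (2.83 ± 0.96, adjusted p = 0.142, limma), and Irf7 had one of 1.19 ± 0.47. Rsad2 ranged from 99.3 to 386 scaled SPM in Healthy and from 37.0 to 728 in Sick granulocytes. Ifit3, the one member lower in Sick mice at an unadjusted p under 0.05, had a difference of -1.18 ± 0.52 (limma adjusted p = 0.219), and its copy Ifit3b one of -0.31 ± 0.55.

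**Figure D2:**
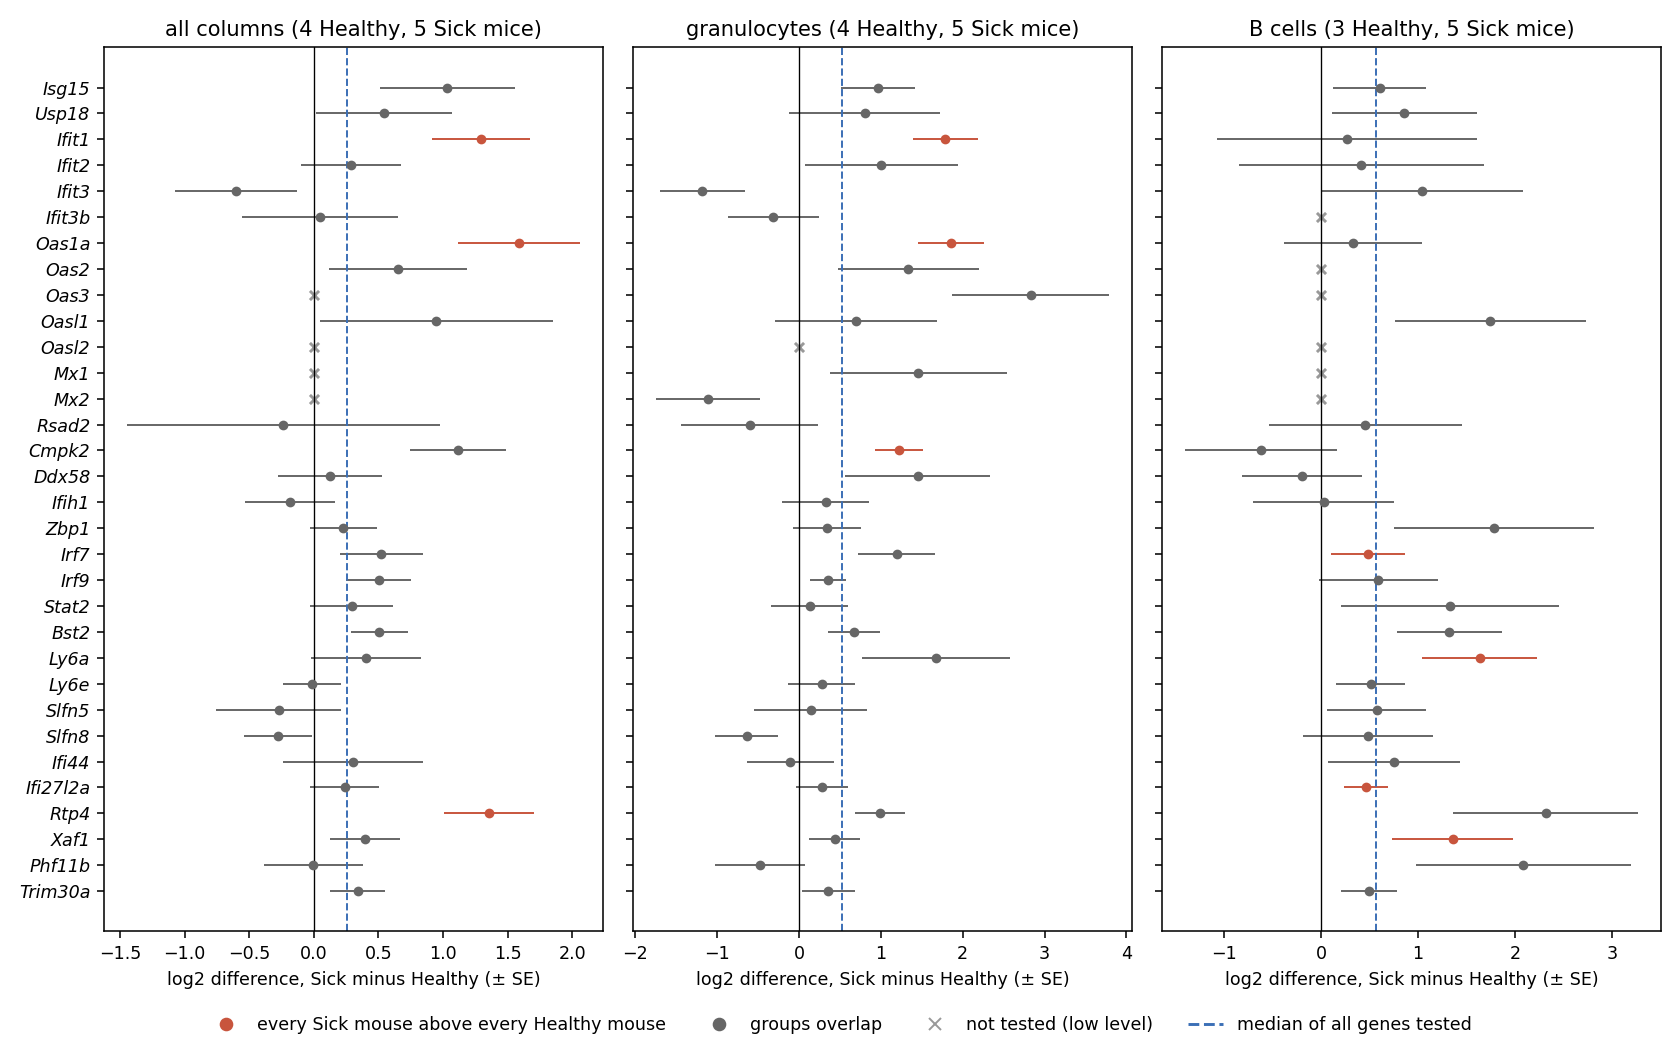
Difference between Sick and Healthy mice for each member on the log2(scaled SPM + 1) scale, with its SE, in all columns, granulocytes and B cells; red points mark members for which every Sick mouse lay above every Healthy mouse, and crosses mark members too low to be tested. The dashed line is the median of all genes tested (0.26, 0.53 and 0.56), around which the members scatter in each panel.

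Rtp4 was among the 4 members with the smallest p both in granulocytes and in B cells. The B cell class, compared over 3 Healthy mice (1, 2 and 4) and 5 Sick mice, was otherwise led by other members than granulocytes. Its 8 B cell markers summed to 3327 to 9280 SPM in Healthy and 4594 to 65490 in Sick mice. Limma called 0 of 26 tested members, beside 0 of 9585 genes (0%). At an unadjusted p under 0.05, 3 members were higher and 0 lower, beside 6.43% and 0.636% of all genes (7.06% in either direction). The difference was above 0 for 24 of the 26, beside 71.4%, and its median was 0.58, beside 0.56 over all genes. The neutrophil markers of this class summed to 2361 to 2921 SPM in Healthy and 3510 to 6027 in Sick mice, with no overlap. Of 10 tested, 9 had a difference above 0, beside 71.4% of all genes. Their median of 0.58 was near the 0.56 of all genes, and 0 were called. The plasma cell markers summed to 604.9 to 3375 and 962 to 40230, which overlap, and all 5 tested were above 0 (median 1.87) with 0 called. The part of these markers in the B cell results was not tested.

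Ly6a (Sca-1, a surface protein of progenitors and activated lymphocytes, chr15:74994877-74998031, minus strand) led in B cells. It stood at 70.1, 88.5 and 11.0 scaled SPM in Healthy mice 1, 2 and 4, and at 155, 142, 124, 149 and 93.6 in Sick mice (difference 1.64 ± 0.60 SE, limma adjusted p = 0.519). Bst2 stood at 42.1, 61.0 and 11.0 and at 84.3, 74.2, 57.7, 93.1 and 87.6 (difference 1.32 ± 0.54). Rtp4 stood at 7.01, 10.8 and 0 and at 17.1, 20.4, 8.79, 37.2 and 40.5 (difference 2.32 ± 0.96). Xaf1, which counteracts an inhibitor of cell death (chr11:72301629-72313733, plus strand), stood at 105, 82.6 and 11.0 and at 125, 107, 114, 149 and 111 (difference 1.36 ± 0.63). For all 4 genes Healthy mouse 4 was the lowest of the 8 mice. Without it the differences were 0.787 for Ly6a, 0.682 for Bst2, 1.285 for Rtp4 and 0.429 for Xaf1 (limma adjusted p = 0.843 for each), and without Healthy mouse 1 that of Xaf1 was 2.102 (limma adjusted p = 0.291). Healthy mouse 4 gave 15 B cell columns with 5 distinct profiles and 40.7% hemoglobin, and 12 of these columns equalled a column of a Sick mouse. The limma adjusted p of Bst2, Rtp4 and Xaf1 was also 0.519.

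Every Sick mouse lay above every Healthy mouse for 4 members in B cells, Ly6a, Xaf1, Ifi27l2a and the transcription factor Irf7, as in 3.38% of all genes tested, and 0 members had every Sick mouse below (1.28% of genes). Ifi27l2a was the steadiest of them, at 337, 314 and 318 scaled SPM in Healthy mice and 445, 353, 476, 447 and 522 in Sick mice (difference 0.46 ± 0.23, limma adjusted p = 0.519). Ly6e stood at 280.5, 237 and 98.7 and at 304, 296, 208, 270.0 and 270.4, and Trim30a at 119, 182 and 143 and at 215, 183, 157, 261 and 228, and for both genes the groups overlapped. The members that led in granulocytes were not among them: Cmpk2 had a difference of -0.63 ± 0.78 in B cells, Oas1a 0.32 ± 0.71 and Ifit1 0.27 ± 1.34. The difference between the classes was fitted directly on each mouse's granulocyte minus B cell value. Limma called 0 of 7171 genes (0%), and 751 genes (10.5%) had an unadjusted p under 0.05. Of 26 members tested, 2 had an unadjusted p under 0.05, Cmpk2 (1.94 ± 0.61) and Oas1a (1.53 ± 0.61; limma adjusted p = 0.445 and 0.465). Ifit1 had a difference between the classes of 1.68 ± 1.36, and 15 members had one below 0, down to -2.09 ± 1.01 for Ifit3 and -2.45 ± 1.30 for Phf11b.

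Genes around the members gave no call either. The interferon ligands sought by name, Ifnb1 among them, were not among the genes of the blood table, so they have no values here. Of 5 receptor and kinase genes, 4 were tested over all columns. Ifnar1, the receptor chain, had mean levels of 214 scaled SPM in Healthy and 129.6 in Sick mice, with all 5 Sick mice below all Healthy ones (difference -0.69 ± 0.24, limma adjusted p = 0.294), as in 1.26% of genes tested. Ifnar2 had a difference of 0.44 over all columns and of 1.03 ± 0.40 in granulocytes (limma adjusted p = 0.178). Mb21d1, the DNA sensor cGAS, had mean levels of 5.30 scaled SPM in Healthy and 21.4 in Sick mice over all columns (4 of 5 Sick mice above, difference 2.18 ± 0.69, limma adjusted p = 0.261). In granulocytes 3 of the 19 pathway genes tested had every Sick mouse above every Healthy mouse, beside 8.65% of all genes. Among them Mb21d1 and the inhibitor Socs1 held 4 and 2 units of signal in all Healthy mice together (limma adjusted p = 0.0876 and 0.0944). The 5 Sick mice alone can carry such genes through the filter for testing, which favours this separation, so it is not counted as a result. Of the pathway list 17 genes were tested over all columns (10 above 0, median 0.17), 19 in granulocytes (15 above 0, median 0.83) and 17 in B cells (10 above 0, median 0.85), with 0 called in each. Over all genes the medians were 0.26, 0.53 and 0.56, and 69.3%, 77.3% and 71.4% were above 0.

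Of the 47 type I targets outside the members, 33, 35 and 35 were tested in the 3 comparisons and 0 were called. Their median differences were 0.12, 0.40 and 0.69, beside 0.26, 0.53 and 0.56 over all genes. Slfn4, a myeloid Schlafen gene, stood nearest, at mean levels of 73.2 scaled SPM in Healthy and 298 in Sick granulocytes (difference 2.38 ± 0.47, 5 of 5 Sick mice above, limma adjusted p = 0.0501). Of the GTPases that interferon-gamma induces strongly, 5 of 11 tested were above 0 over all columns and 4 of 8 in granulocytes, with medians of -0.17 and -0.14. In B cells 9 of 10 were above 0, and their median of 0.64 was near the 0.56 of all genes. The shares of all genes above 0 were 69.3%, 77.3% and 71.4% in the 3 comparisons. None of these GTPases was called. Gbp4 among them had means of 25.9 and 5.99 scaled SPM in granulocytes, with every Sick mouse below every Healthy mouse (difference -1.87 ± 0.51, limma adjusted p = 0.0994), as in 1.4% of genes. The 5 tested genes of the interferon-gamma pathway had medians of -0.40 over all columns and 0.57 in granulocytes, and the 6 tested in B cells 0.15. In granulocytes all 13 neutrophil markers had a difference above 0 (median 2.59) and all 10 erythroid markers one below 0 (median -1.72).

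Levels by class showed where in blood these transcripts lay. Plain SPM, with no TMM factor, was used here, and a class entered for each mouse with at least 5 columns of it. How the classes were named is not stated. The same expression values may have been used for it, so the order of the classes is a description without a test. The 32 members together reached 4821 ± 1157 SPM (SD, 4 Sick mice) in myeloid dendritic cells, 2609 ± 1347 in granulocytes (9 mice), 1757 ± 574 in B cells (8), 1680 ± 542 in the class named foxP3 T cells (7), 1343 ± 123 in CD4 T cells (6) and 1114 ± 108 in common myeloid progenitors (4 Sick mice). Neighbours in this order overlap in range throughout, granulocytes (1584 to 6091) with myeloid dendritic cells (3473 to 6301) included. The order also depends on hemoglobin: with it left out of the total the means were 5146 ± 810.0, 3569 ± 1314, 1886 ± 476, 2568 ± 473, 1369 ± 159 and 1450.0 ± 521 (SD) in the same order, so that the foxP3 class stood above B cells and progenitors above CD4 T cells. Myeloid dendritic cells, whose monocyte and macrophage markers summed to 2030 to 3187 SPM and dendritic markers to 3720 to 8294 SPM, held the highest mean of 26 of the 32 members. Granulocytes held 5 of the rest, Ifit1, Oas2, Oas3, Oasl1 and Rsad2, and B cells held Ly6a. Common myeloid progenitors held the lowest mean of 16. These counts of members have hemoglobin in the total and were not worked out without it.

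**Figure D3:**
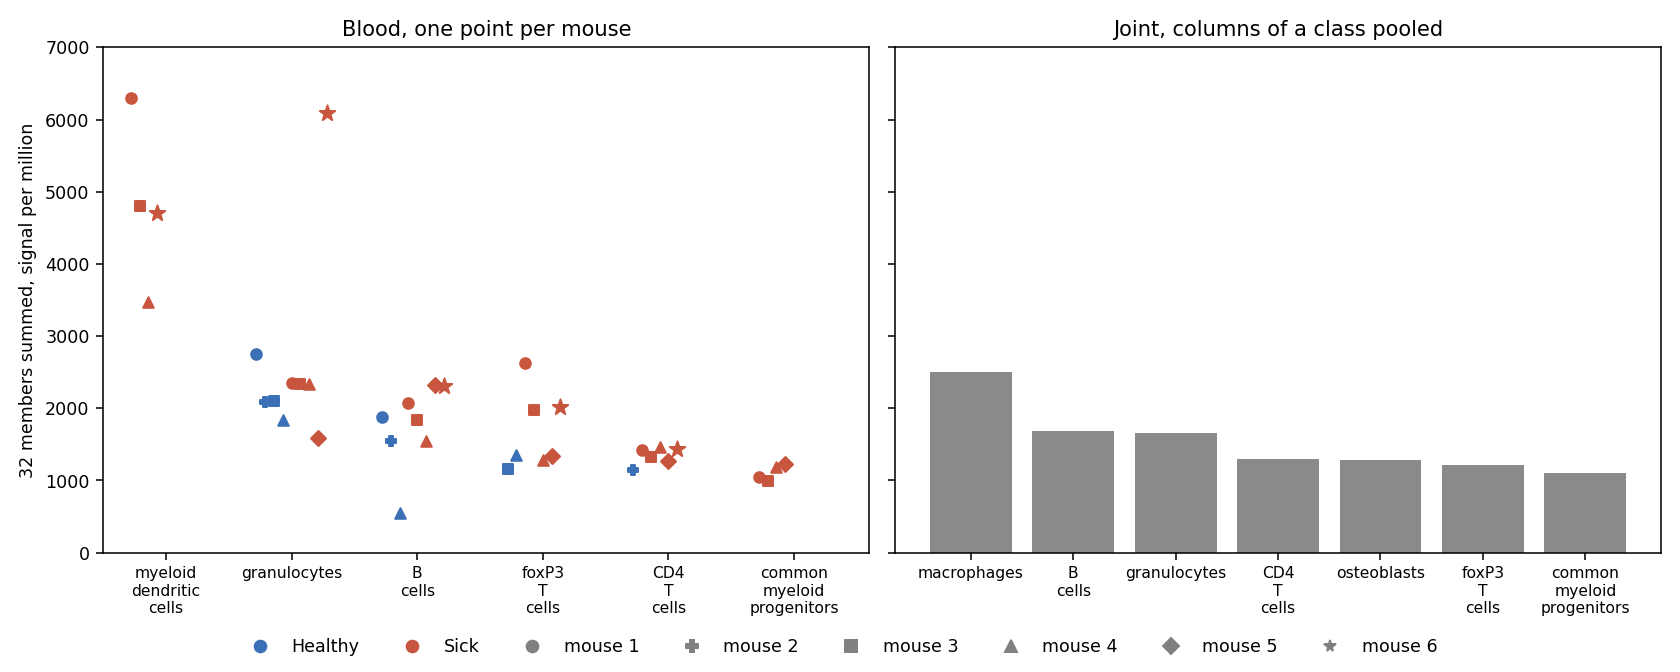
The 32 members summed, in SPM, for each blood class and mouse (left, 1 point per mouse with at least 5 columns) and for each joint class with all its columns pooled (right, bars from 0). Granulocytes of Sick mouse 6 reach 6091 SPM while those of the other 8 mice lie between 1584 and 2747, and myeloid dendritic cells lie between 3473 and 6301.

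Within the myeloid dendritic class Ifi27l2a averaged 1078 SPM, Ly6e 452 and Slfn5, a Schlafen family nuclear protein gene, 421. Irf7, the factor that amplifies interferon production, averaged 291 SPM there against 117 in granulocytes and 57.1 in B cells. Ifi27l2a also ranked first in granulocytes (615 SPM), B cells (410.0), CD4 T cells (338) and the foxP3 class (423). In granulocytes Rsad2 (216 SPM) and Trim30a (208 SPM) followed, in B cells and CD4 T cells Ly6e (260 and 170.2) and Trim30a (191 and 166), and in the foxP3 class Rsad2 (211) and Ly6e (166). Common myeloid progenitors were led by Ly6e (167 SPM), Isg15 (156) and Rsad2 (153). The foxP3 class held markers of several cell types. Its erythroid markers summed to 1910 to 603200 SPM, and those of granulocytes (up to 532000) and B cells (up to 405100) were also high. Its T cell markers summed to 576 to 2548 SPM, against 2845 to 3175 in CD4 T cells. Its NK cell markers summed to 225 to 1241 SPM. In Sick mice 1 and 3 hemoglobin took 0.174% and 0.658% of the class. The T cell gene Cd3e stood there at 218 and 214 SPM, and at 37.5 to 97.2 in the other mice of the class. By group, the summed members gave 547.9 to 1875 SPM in Healthy and 1541 to 2325 in Sick B cells. In the foxP3 class they gave 1166 to 1351 SPM (2 mice) and 1282 to 2633 SPM (5 mice), and with hemoglobin left out of the total 2320 to 2701 and 1989 to 3499, which overlap. Hemoglobin took 41.8% and 56.9% of that class in the Healthy mice and 0.174% to 61.9% in the Sick mice.

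Granulocytes of Sick mouse 6, the mouse with the highest stage label, stood apart from the rest. The summed members were 2747, 2084, 2103 and 1845 SPM in Healthy mice 1 to 4, 2349, 2340, 2339 and 1584 in Sick mice 1, 3, 4 and 5, and 6091 in Sick mouse 6. Without that mouse the Sick mean was 2153 ± 379 SPM, against 2195 ± 386 in the 4 Healthy mice. Of the 32 members, 27 were higher in this mouse than in any of the other 8, and 28 exceeded 2 times the median of those mice. Slfn5 reached 567 SPM against a median of 108, Ifi44, a cytoskeleton-associated interferon gene, 298 against 56.6, and Oasl2 32.7 against 3.88. Irf7 reached 342 SPM against 94.9, and Bst2 189 against 57.3. The 10 monocyte and macrophage markers also summed highest in the granulocytes of this mouse, to 3371 SPM against 515.3 to 1900 in the other 8, and Csf1r, the receptor that marks monocytes, stood at 143 SPM against 11.6 to 83.4. Their part in the result was not tested. Rsad2 was not among the members highest in this mouse, at 173 SPM against a median of 241, and Cmpk2, Ly6a, Oasl1 and Oas3 were also not highest in this mouse.

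In its other classes the summed members of this mouse lay within the range of the other mice. Its summed members stood at 2311 SPM in B cells, where Sick mouse 5 had 2325, but its median B cell column was the highest of 8 mice (2251 against 855.8 to 2017 SPM) and 14 of 32 members were highest in it (9 in Sick mouse 5). They stood at 1439 SPM in CD4 T cells, where Sick mouse 4 had 1460, and at 4712 SPM in myeloid dendritic cells, where Sick mouse 1 had 6301. Its median granulocyte column held 6670 SPM, against medians of 1472 to 2320 in the other 8 mice. The spread was wide in each Sick mouse, from 253 to 15730 SPM in Sick mouse 1 for example.

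That spread varied with how much granule transcript a column held. Ltf, Camp and Ngp encode proteins of the secondary granules, which neutrophils make while they mature in the marrow and not afterwards. Over 1486 distinct granulocyte columns, the summed members had a Spearman correlation of -0.64 with the sum of these 3 genes and of 0.086 with Cxcr2 plus Csf3r, receptors of mature neutrophils. These columns share mice, class and unequal depth, so the values are a description. When the columns were split into 3 equal groups by the granule sum, the members reached 5103 SPM in granule-poor, 1762 in intermediate and 1533 in granule-rich columns. Ly6e stood at 459, 104 and 64.4 SPM in that order, Slfn5 at 401, 49.2 and 37.4, and Ifi44 at 235, 19.0 and 10.3. The granule-poor levels of these 3 genes lay near their means in myeloid dendritic cells (452, 421 and 232 SPM, 4 Sick mice). Those of Rsad2 (247.5 against 111.6) and Ly6a (37.5 against 81.6) lay further apart. Markers of other cell types were not summed by granule content, so which cells the granule-poor columns hold was not tested. Oas1a (73.2, 20.4 and 68.8 SPM), Ifit1 (28.4, 27.4 and 32.3) and Cmpk2 (53.8, 32.4 and 56.9) were not lowest in granule-rich columns.

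Mice differed in both the mixture and the level. Of the distinct granulocyte columns of Sick mouse 6, 167 of 224 were granule-poor, against 80 of 409, 59 of 277, 132 of 330 and 61 of 323 in Sick mice 1, 3, 4 and 5. Healthy mice 1, 3 and 4 had 9 of 13, 8 of 11 and 9 of 18, and Healthy mouse 2 had 1 of 5. Among granule-poor columns alone, the members summed to 7391 SPM in Sick mouse 6, to 5987, 5635, 3611 and 2721 in Sick mice 1, 3, 4 and 5, and to 3720, 2593 and 2487 in Healthy mice 1, 3 and 4. Hemoglobin took 0.586% to 58.96% of the signal of these columns. With hemoglobin left out of the total, the values were 7870 in Sick mouse 6, 5668 to 6024 in the other 4 Sick mice and 4687, 6319 and 4840 in Healthy mice 1, 3 and 4. On that scale Healthy mouse 3 lay above 4 of the 5 Sick mice, and Sick mouse 6 was still the highest.

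**Figure D4:**
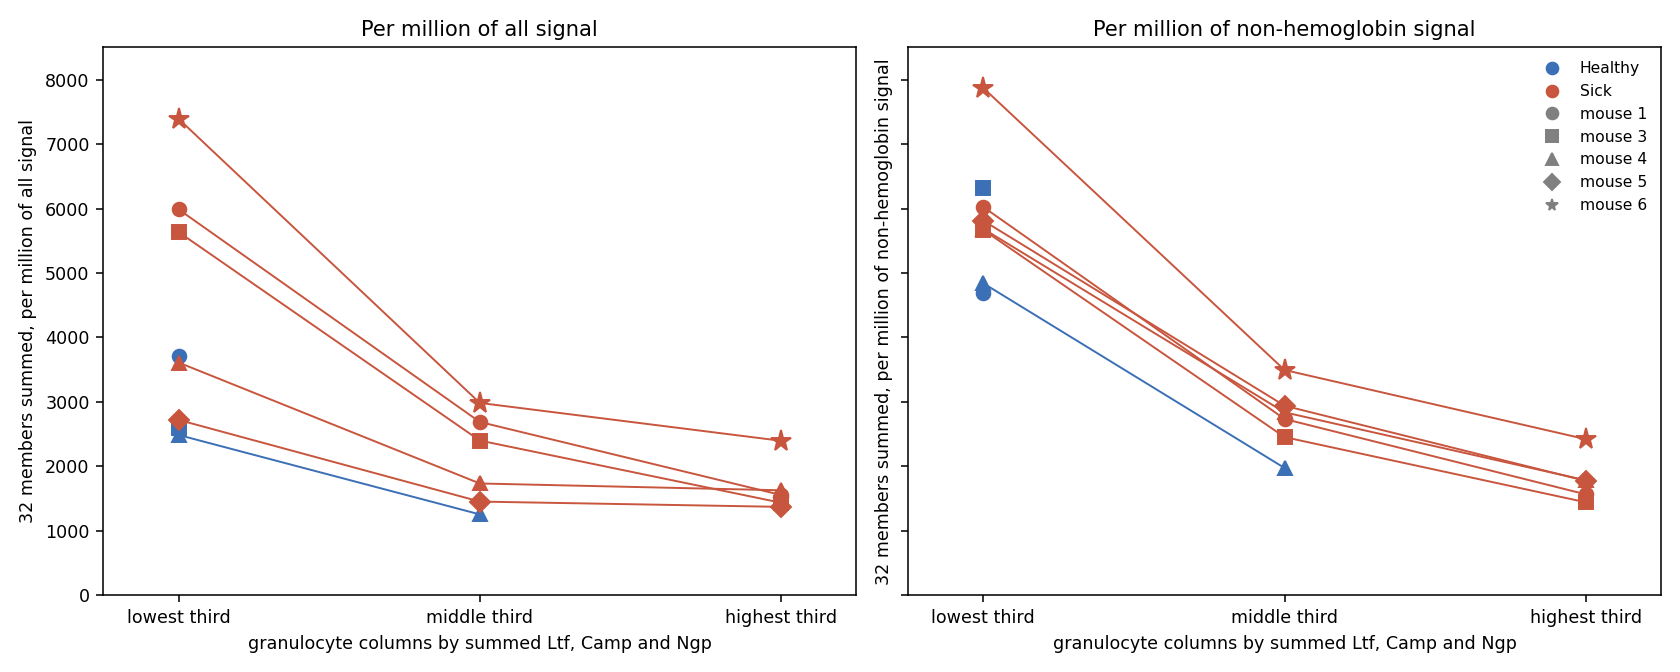
Summed members in granulocyte columns grouped into 3 equal parts by their Ltf, Camp and Ngp signal, 1 line per mouse, as SPM with all genes (left) and with hemoglobin left out of the total (right); groups of under 5 columns are not drawn. Every mouse drawn with more than 1 group has its highest value in the granule-poor columns, and Sick mouse 6 is the highest in each group.

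Rsad2 differed from the other members in what it followed. Over the same 1486 columns its Spearman correlation with the summed erythroid markers was 0.61, that of Isg15 was 0.19, and those of the other 30 members ran from -0.37 to -0.016 as SPM with hemoglobin in the total. With each member counted per non-hemoglobin signal, Rsad2 was at 0.70 and Isg15 at 0.42, while the other 30 lay between -0.29 and 0.035. On that scale 3 of these 30 were above 0 (Irf9, Ifit1 and Ifit3b), and Ifi27l2a stood at -0.038 in place of -0.28. The correlation of Rsad2 with the sum of the other members was -0.051, against 0.77 for Ifi27l2a, 0.71 for Trim30a and for Slfn5, and 0.66 for Ifi44. In Healthy mice 1 to 4, over all columns, the erythroid share was 16.9%, 1.64%, 54.3% and 41.3%, and Rsad2 stood at 89.3, 17.5, 308 and 218 SPM. In Sick mice 1, 3, 4, 5 and 6 the share was 0.895%, 0.702%, 33.2%, 48.7% and 3.51%, and Rsad2 stood at 26.55, 25.3, 263, 433 and 73.2 SPM. The 4 mice with over 30% erythroid signal, 2 of each group, were the 4 with the most Rsad2. Whether Rsad2 comes from erythroid cells or from other cells caught with them was not tested.

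**Figure D5:**
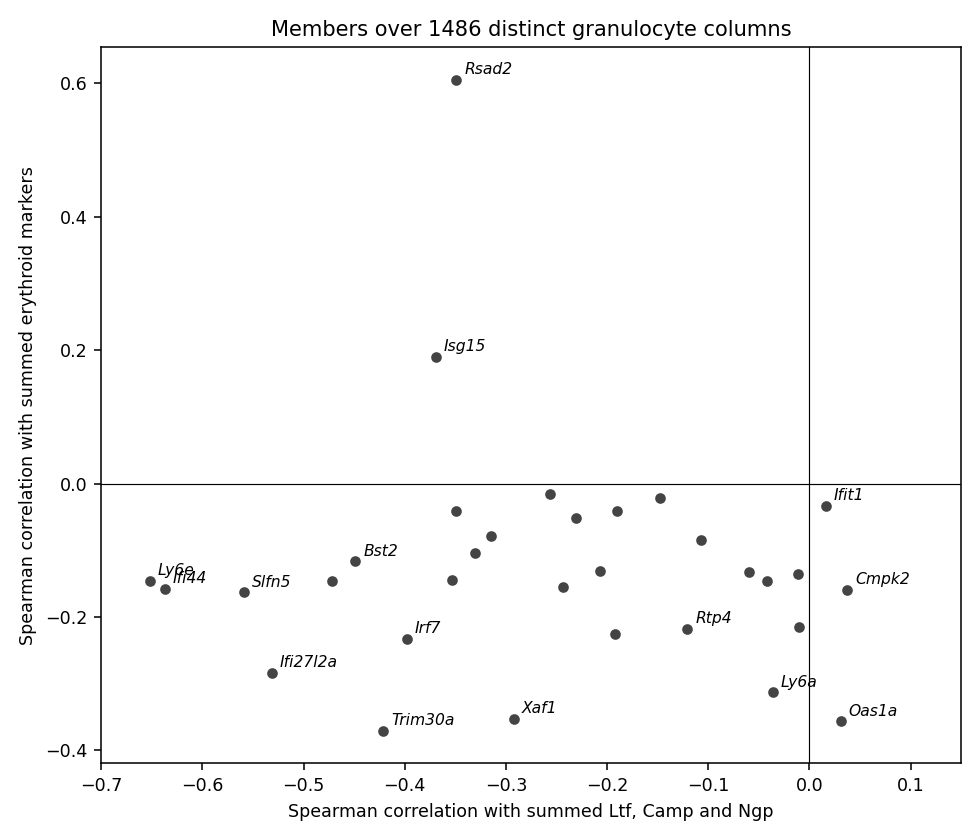
Spearman correlation of each member over 1486 distinct granulocyte columns with summed Ltf, Camp and Ngp (x axis) and with summed erythroid markers (y axis), both without unit. Members are SPM with hemoglobin in the total: Rsad2 lies at 0.61 on the y axis, Isg15 at 0.19 and the other 30 members below 0, of which 3 lie above 0 with hemoglobin left out.

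The joint table held 8423 columns that match none of the blood samples, so its values are pooled by class, with no replicate and no comparison of health. As in blood, the order of the classes is a description, since they may have been named from the same expression values. The class called macrophages here is labelled in full as bone marrow macrophages treated with LPS, a bacterial product. What that label has to do with its member levels was not tested. This class held the most, with the members summing to 2499 SPM over 67 columns. B cells followed at 1684 (63 columns), then granulocytes at 1660 (6487) and CD4 T cells at 1291 (28). Osteoblasts stood at 1280 (58), the foxP3 class at 1220 (179) and common myeloid progenitors at 1099 (1498). Hemoglobin is part of these totals, and the foxP3 class, which held the most erythroid marker signal, is lowered by it. The joint order was not worked out without hemoglobin, which changed the order in blood. With each distinct profile counted once, osteoblasts (1715 SPM, 18 profiles) and granulocytes (1711) stood above B cells (1687), while macrophages (2632) stood first both ways. Macrophages held the highest value of 11 members, among them Ifi27l2a (782 SPM), Slfn5 (297) and Irf7 (190.1), and Ly6e (247) came next after Slfn5. B cells were led by Ifi27l2a (334 SPM), Ly6e (290.2) and Ly6a (267), and CD4 T cells by Ifi27l2a (248), Ly6e (193) and Trim30a (134). In osteoblasts, bone-forming cells whose own markers summed to 129500 SPM, the leading members were Ly6a (307 SPM), Bst2 (236) and Ifi27l2a (194). Granulocytes were led by Ifi27l2a (332 SPM), Rsad2 (206) and Isg15 (141). Progenitors were led by Ly6e (170.4), Isg15 (122) and Rsad2 (115.0).

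Rsad2 had its highest joint value in the foxP3 class, at 329 SPM ahead of Ifi27l2a (196) and Ly6e (132), and this class also held the most erythroid marker signal (447000 SPM). Over 4053 distinct joint granulocyte columns that equal no blood column, Rsad2 had a Spearman correlation of 0.64 with the erythroid markers and Isg15 one of 0.21, while the other 30 members lay between -0.45 and -0.016. The summed members had one of -0.34 with the granule sum there, and Ly6e had -0.51. In the joint granulocytes Oas1a stood at 32.1 SPM, Cmpk2 at 36.2 and Ifit1 at 21.4.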

How the data were processed

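Blood of 9 mice was measured by Seq-Well. Per the labels' protocols, reads were extracted by the Drop-seq core pipeline against GRCm38.p5; how cells were filtered and classes named is not stated there. The deposited tables hold signal, whole numbers per gene and barcode column, with 6052 to 51601 units per blood column. Because many columns are identical between mice or tables, a column may not be 1 cell, so no count model was used and no counting interval is given.

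Signal was summed per mouse, over all columns or over a class with 5 or more columns, divided by the total times a TMM factor (trims 30% and 5%) and given per 1000000 units of signal (SPM). Tests ran on log2 values after adding 1. A gene was tested if it reached 10 scaled SPM in as many mice as the smaller group has. Limma 3.58.1 in R 4.3.3 gave two-sided p-values (with a trend, except for the difference between classes), adjusted by Benjamini-Hochberg over all tested genes, threshold 0.05. They measure the spread between these mice only. The fit was tested on simulated data. In the joint data, 43 columns of small classes were left out.

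The members and lists were chosen with earlier results of these data known. Values in every mouse are given for the 6 members with the smallest p over all columns, the 4 in each class, and the 3 highest in each comparison, in part as ranges. Positions are from GENCODE on GRCm38, promoter windows from RefSeq on GRCm38.p6. Python 3.11.15, numpy 2.4.6 and pandas 2.3.3 were used. Alternatives changed scaling, filter, pseudocount, columns, hemoglobin, weights, block, covariates and mice.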

Additional observations from a re-analysis of the deposited data

Results flagged for a closer look

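Dixon's gap test looked for a mouse lying far from the rest of its group in 46 sets of 4 or 5 mice, and flagged 5. Its rate of about 1 in 20 holds for independent, normally distributed sets. These sets shared mice and genes, held unlogged levels, and were partly picked by p or level. The 5 can therefore not be set against that rate. In granulocytes, Sick mouse 6 lay above the other 4 Sick mice in the summed members, at 6091 SPM, and in Ifi27l2a, at 1090.0 scaled SPM to 3 digits. Ifit1 was lowest in Sick mouse 3, at 25.3 scaled SPM, below the other 4 Sick mice at 32.1 to 33.8. Over all columns, Irf9 was highest in Sick mouse 5, at 95.9 scaled SPM, and Ly6e in Healthy mouse 1, at 275 scaled SPM.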

How the results depend on the processing

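No member passed the adjusted threshold over all columns under any of 22 settings or in B cells under any of 19. Over all columns limma called 4 genes, against 19 when scaled by the total alone, 7 with a pseudocount of 5, 7 when thinned to the smallest total, 10 without hemoglobin genes, 9 with the granulocyte share of columns as covariate, and 0 with no filter, with array weights, without columns identical to a joint column, and with granule transcripts as covariate. That last covariate also put the members' median 0.721 above that of all genes, against 0.062. Leaving out 1 mouse gave 0 to 64 genes, 64 of them without Sick mouse 6.

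In granulocytes 52 genes were called, against 5 with median-of-ratios factors, 2 with the total alone, 2801 with no filter, 175 with a pseudocount of 5, 457 without columns shared between mice, 1273 without columns identical to a joint column, 7 when thinned, 282 without hemoglobin genes, 283 with array weights and 0 with the granule covariate. Members called there went from 0 to 3 with no filter, 2 with a pseudocount of 5, 4 without shared columns, 2 without columns identical to a joint column, 3 without hemoglobin genes and 1 with array weights. Leaving out 1 mouse gave 0 to 883 genes and 0 to 4 members, both highest without Healthy mouse 2. Thinning turned the granulocyte difference of Rtp4 to -0.324. Leaving out 1 mouse gave 0 to 59 genes in B cells (59 without Healthy mouse 2) and 0 to 117 for the difference between classes (4, 117 and 77 without Healthy mouse 1, 2 and 4).

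The mouse numbers are shared by both groups. Same-numbered mice had correlated deviations of r = -0.004, -0.287 and 0.301, inside the -0.541 to 0.527 of differently numbered pairs. So few pairs cannot show whether a number marks anything shared. With the replicate block 40 genes were called over all columns, 190 in granulocytes and 13 in B cells, and 0 members. In the joint, counting distinct profiles once gave 1273 SPM in the foxP3 class, 1711 in granulocytes, 2632 in macrophages and 1715 in osteoblasts, and granulocytes without blood-identical columns gave 1624. Thinning, the joint-identical columns and the granule covariate were chosen after seeing the data. Why these values changed was not tested. Healthy depth, 330950 units of signal in the smallest mouse, limits the low members most.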
